A study of Bos taurus with 47 samples.

Results

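ENSBTAG00000000198 and ENSBTAG00000022971, called the first gene and the second gene here, are 2 of the 20526 bovine genes in the deposited table. They were chosen by their normalized read values in the blastocyst-derived cells: near silent in cells derived from blastocysts made by in vitro fertilization (IVF) and high in cells derived from blastocysts made by somatic cell nuclear transfer (scNT). Their levels in these derived cells are therefore given as a description, with no test, and tests were made among the other groups. The files do not pair the identifiers with gene names, and in the RefSeq table at hand 0 of the 20526 were found. What the genes encode is not stated here for that reason, and the labelled cell types were not checked against marker genes.

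The series held 47 libraries in 12 groups, each with 4 libraries except scNT morulae, which had 3. Values are normalized reads, that is, reads per gene divided by 1 size factor per library. Fibroblasts were primary cultures from an ear biopsy of a Brahma Spanish bull cross, and mature (MII) oocytes were cultured in vitro. IVF embryos came from oocytes fertilized with semen of a Holstein bull, and scNT embryos from oocytes without their own chromosomes, each fused with 1 serum-starved fibroblast of passage 4 to 5. Embryos of both kinds grew on bovine cumulus cells and were collected in pools of 20 on day 2 (2-cell), 3 (8-cell), 6 (morula) and 8 (blastocyst). The labels and files used here do not tell how the derived cells were grown, or how many blastocysts or clones went into a library. In such bulk libraries, fewer cells that express a gene and less RNA per cell cannot be told apart. The nuclear genome of the scNT groups came from the fibroblast donor and that of the IVF groups from oocytes and sperm, so method and genotype cannot be told apart. The labels do not link replicates to separate animals or cultures, and p-values then measure the spread between these libraries, which may be technical.

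In nuclear transfer, the nucleus of a differentiated cell is placed in an egg whose own chromosomes were removed, and the egg's cytoplasm resets much of its gene activity. A cattle embryo first lives on RNA stored by the oocyte, and its own genome becomes broadly active around the 8-cell stage. The morula is a compact ball of cells, and the blastocyst has an outer trophectoderm, which forms placenta, and an inner cell mass, which forms the embryo proper. Cells grown out of a blastocyst can descend from any of these layers.

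The libraries held between 4608099 and 16642362 reads. In the derived cells the range was 7858754 to 9342097 reads for IVF and 7590056 to 10318674 for scNT. In a chi-square test of the counts, the most alike of the 69 pairs of libraries within a group gave 6.67 per degree of freedom, so no pair agreed within sampling noise. Fibroblast replicate 3 and IVF 2-cell replicate 3 stood apart, with a mean correlation to the other libraries of their group of 0.870 and 0.883 on the log2 scale. Both genes were at 0 in these libraries and in every other fibroblast library, and the second gene was at 0 in every other IVF 2-cell library.

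In cells derived from scNT blastocysts both genes were abundant in all 4 libraries. ENSBTAG00000000198 had 5664.4, 1928.4, 3039.0 and 1898.8 normalized reads in replicates 1 to 4, a mean of 3133 ± 1769 (SD, n = 4). ENSBTAG00000022971 had 1443.2, 918.7, 810.5 and 515.0 in the same libraries, a mean of 922 ± 387. Replicate 1 was the highest and replicate 4 the lowest for both genes. The libraries differed more in these genes than in most others. The coefficient of variation was 56.5% for the first gene and 42.0% for the second, while the 9780 genes with a mean of at least 50 in these libraries had a median of 16.5%. Of those genes, 97.5% varied less than the first gene and 93.0% less than the second. The ratio of the first gene's value to the second's was 3.92, 2.10, 3.75 and 3.69 in replicates 1 to 4, so replicate 2 had relatively more of the second gene.

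In cells derived from IVF blastocysts both genes had few reads, but every library had some. Whether these reads came in part from scNT derived-cell libraries was not tested. The first gene had 4.5, 3.7, 13.7 and 15.1 normalized reads in replicates 1 to 4, from 4, 4, 13 and 13 reads, a mean of 9.25 ± 5.98 (SD, n = 4). The second gene had 2.3, 0.9, 4.2 and 3.5, from 2, 1, 4 and 3 reads, a mean of 2.73 ± 1.45. Replicates 3 and 4 were higher than replicates 1 and 2 for both genes. The means were 0.295% and 0.296% of those in scNT derived cells, a ratio of 339 for the first gene and 338 for the second. The lowest scNT library exceeded the highest IVF library 126-fold for the first gene and 123-fold for the second. These values chose the genes and support nothing further.

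**Figure D1:**
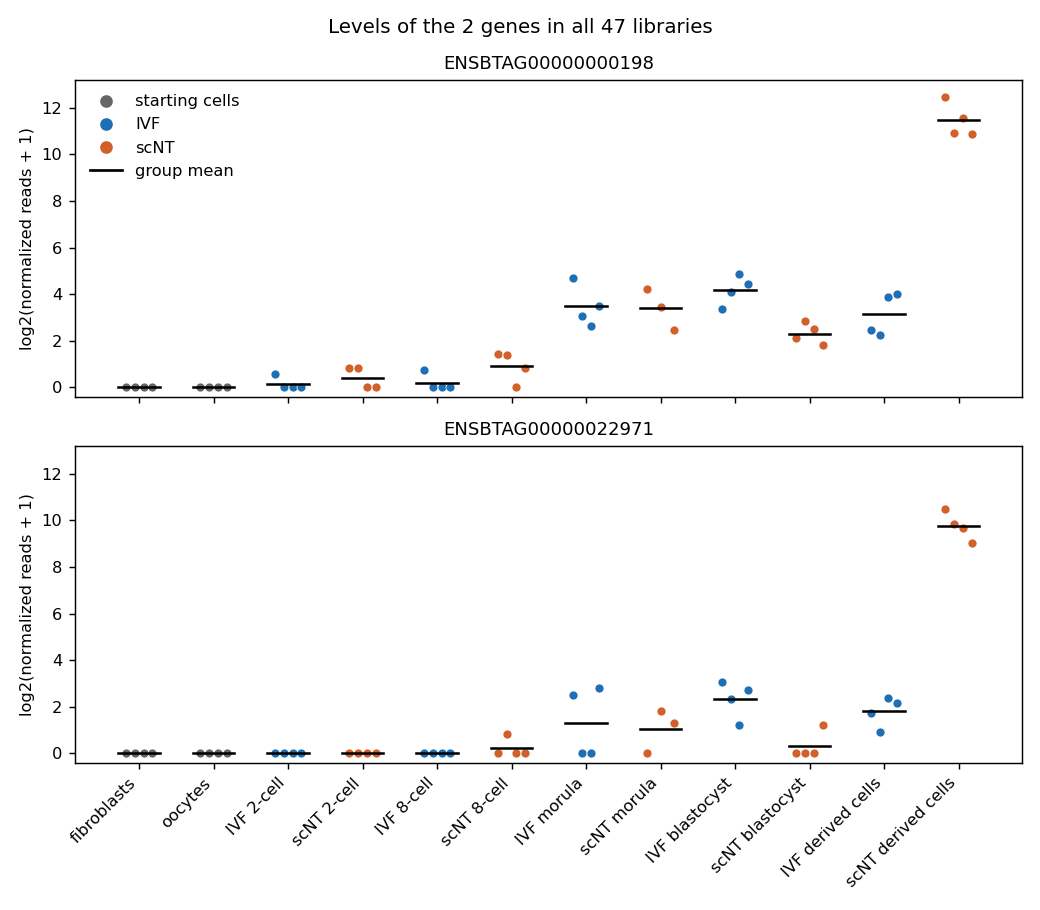
Levels of ENSBTAG00000000198 (top) and ENSBTAG00000022971 (bottom) in all 47 libraries, on a log2(normalized reads + 1) axis. Each point is 1 library, the bars are group means, and colours mark fibroblasts and oocytes (grey), IVF (blue) and scNT (orange). The scNT derived cells lie at means of 11.46 and 9.75, while no other group mean is above 4.19 for the first gene or 2.34 for the second.

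Among all genes these were the 2 with the largest difference in mean log2(value + 1) between scNT and IVF derived cells, at 8.32 and 7.95, ranks 1 and 2 of 19226 genes with a value above 0 in either group. The next differences were 7.38 and 6.12, the former that of ENSBTAG00000020564. A stricter picture of on and off asked for at most 10 normalized reads in every IVF library and at least 50 in every scNT library. It was met by 3 of 20526 genes (0.0146%), which were the second gene, ENSBTAG00000020564 and ENSBTAG00000007296, and by 0 genes in the opposite direction. The first gene missed it because 2 of its IVF derived-cell libraries had 13.7 and 15.1. With the limits at 5 and 100 the count was 2, the second gene and ENSBTAG00000020564.

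**Figure D2:**
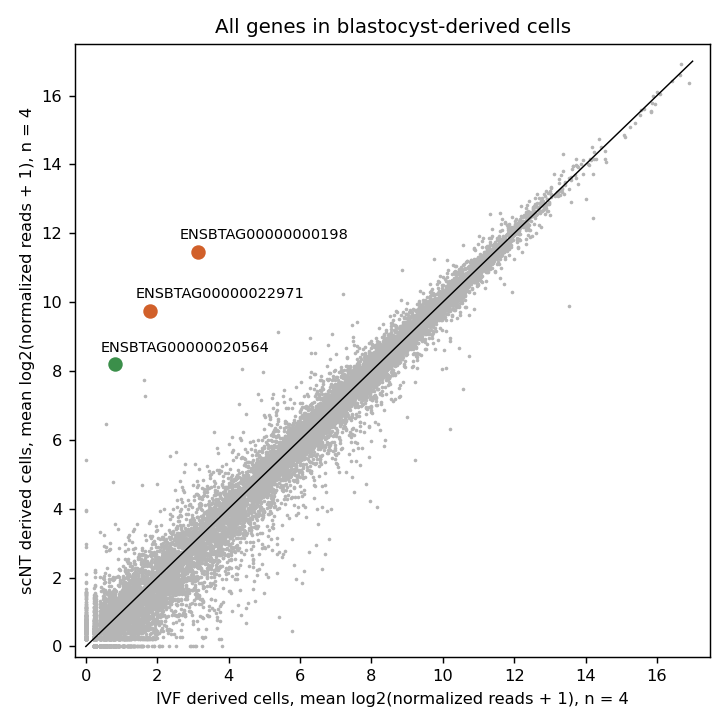
Mean log2(normalized reads + 1) of 19226 genes in IVF (x axis) and scNT (y axis) blastocyst-derived cells, n = 4 libraries each, with the line of equal levels. ENSBTAG00000000198 and ENSBTAG00000022971 (orange) and ENSBTAG00000020564 (green) lie above the main cloud, by 8.32, 7.95 and 7.38 from the line.

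Neither gene was seen in the cells from which the scNT embryos were made. Both had 0 reads in all 4 fibroblast libraries, which held 49886631 reads together, and 0 reads in all 4 oocyte libraries, which held 48661062. A count of 0 allows up to 3 reads over the group, or 0.0601 reads per 1000000 in fibroblasts and 0.0617 in oocytes. Such limits, and the intervals on reads in the text, cover counting error alone. The limit of 3 reads was also taken in normalized reads and set against the mean in scNT derived cells. The first gene's mean was at least 5111-fold higher than in fibroblasts and at least 6355-fold higher than in oocytes. Here "at least" concerns the limit alone and not the spread between scNT libraries. The second gene's mean was at least 1504-fold and at least 1870-fold higher, in the same sense.

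Before the morula stage reads of both genes were few, and groups with at most 3 reads between them were not tested. The first gene had 1 read in IVF 2-cell embryos, 2 in scNT 2-cell embryos and 1 in IVF 8-cell embryos, each summed over 4 libraries. In scNT 8-cell embryos it had 3, 2, 0 and 1 reads in replicates 1 to 4, or 1.7, 1.6, 0.0 and 0.8 normalized reads. Those 6 reads against the 1 read in IVF 8-cell embryos gave a difference of 0.72 on the log2(value + 1) scale, which did not pass an exact permutation test of library values (two-sided p = 0.143, n = 4 and 4), a rule by which 2.55% of genes were higher in scNT embryos. The step from the scNT 2-cell to the 8-cell embryo did not pass either (difference 0.49, exact permutation p = 0.4), in a step in which 4.32% of genes rose by this rule. The second gene had 1 read in scNT 8-cell embryos and 0 reads in the 12 libraries of the other 3 groups of these stages.

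In morulae the first gene had reads in every library of both kinds. IVF morulae had 24.7, 7.4, 5.3 and 10.3 normalized reads in replicates 1 to 4, from 16, 5, 5 and 12 reads. The scNT morulae had 17.9, 10.0 and 4.5 in replicates 2 to 4, from 19, 8 and 3 reads. All 7 values lay above all 8 values of 8-cell embryos. From the 8-cell embryo to the morula it rose by 3.29 on the log2(value + 1) scale in IVF embryos (exact permutation p = 0.0286, the smallest that 4 libraries against 4 allow) and by 2.47 in scNT embryos (exact permutation p = 0.0286, the smallest for 3 against 4). It did not pass the filter on low values in either comparison, which asked for at least 10 normalized reads in as many libraries as the smaller group. Limma without that filter, adjusted over all genes by Benjamini-Hochberg, gave an adjusted p of 0.00100 in IVF and 0.00680 in scNT embryos, where it called 30.7% and 50.5% of all genes in either direction.

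A rise over this interval was common. Of the genes with more than 3 reads in the 2 groups, 15.1% were higher in IVF morulae than in IVF 8-cell embryos by the same exact permutation rule, against 1 of the 2 genes here. In scNT embryos the share was 20.7%, again against 1 of the 2. The second gene had 4.6, 0.0, 0.0 and 6.0 normalized reads in IVF morulae and 0.0, 2.5 and 1.5 in scNT morulae, between 0 and 7 reads a library. Its differences from 8-cell embryos, 1.32 in IVF and 0.83 in scNT, did not pass (exact permutation p = 0.429 and 0.257, n = 4 and 4, and 3 and 4).

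IVF and scNT morulae overlapped for both genes. The first gene had 10.8 ± 6.74 normalized reads in scNT (SD, n = 3) and 11.9 ± 8.76 in IVF morulae (n = 4). The difference of -0.09 ± 0.63 (SE) on the log2(value + 1) scale had a 95% interval from -1.51 to 1.33 and did not pass limma's test (Benjamini-Hochberg adjusted p = 0.935). The interval spans more than a 2-fold change in each direction. In this comparison 18.7% of 13590 genes were called. The second gene differed by -0.28 (exact permutation p = 0.914, n = 3 and 4), and 12.4% of genes were lower in scNT morulae by that rule.

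In blastocysts the first gene was lower in scNT than in IVF embryos, the opposite of the direction by which it was chosen in derived cells. IVF blastocysts had 9.3, 16.3, 27.9 and 20.6 normalized reads in replicates 1 to 4, from 5, 8, 22 and 11 reads, a mean of 18.5 ± 7.79 (SD, n = 4). The scNT blastocysts had 3.3, 6.2, 4.6 and 2.5, from 2, 4, 3 and 2 reads, a mean of 4.15 ± 1.62. The groups did not overlap, and the ratio of the scNT to the IVF mean was 0.224. The difference was -1.88 on the log2(value + 1) scale (exact permutation p = 0.0286, the smallest possible, n = 4 and 4), and by this rule 6.73% of genes were lower in scNT blastocysts. The gene missed the filter on low values. Limma without the filter gave a 95% interval from -2.92 to -0.84 and an adjusted p of 0.0387, and called 3.83% of 20008 genes in either direction. Without scNT replicate 1 or 4 the exact permutation p was 0.0571.

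The second gene had a difference of like sign in blastocysts that did not pass. It had 7.4, 4.1, 1.3 and 5.6 normalized reads in IVF blastocysts, from 4, 2, 1 and 3 reads, and 0.0, 0.0, 0.0 and 1.3 in scNT blastocysts, from 1 read in all. The groups touched at 1.3, which was 1 read in either library. The difference was -2.04 (exact permutation p = 0.0571, n = 4 and 4), and limma without the filter gave an adjusted p of 0.0711. With every library scaled to the same total the exact permutation p was 0.0286 (n = 4 and 4). That scaling set the tied single reads apart, at 1.24 in IVF replicate 3 and 1.05 in scNT replicate 4.

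Between morula and blastocyst neither gene passed a test in either kind of embryo. In IVF embryos the first gene's difference was 0.71 ± 0.50 (SE; 95% interval from -0.35 to 1.78; limma adjusted p = 0.230, n = 4 and 4), in a step in which 59.9% of 13354 genes were called. In scNT embryos it was -1.08 (exact permutation p = 0.143, n = 4 and 3), where 18.9% of genes fell by that rule. The second gene had 1.01 in IVF embryos and -0.74 in scNT embryos (exact permutation p = 0.286 and 0.257, n = 4 and 4, and 4 and 3). By the same rule 20.3% of genes rose in IVF embryos over this step. Whether the IVF and scNT steps differed was not tested.

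**Figure D3:**
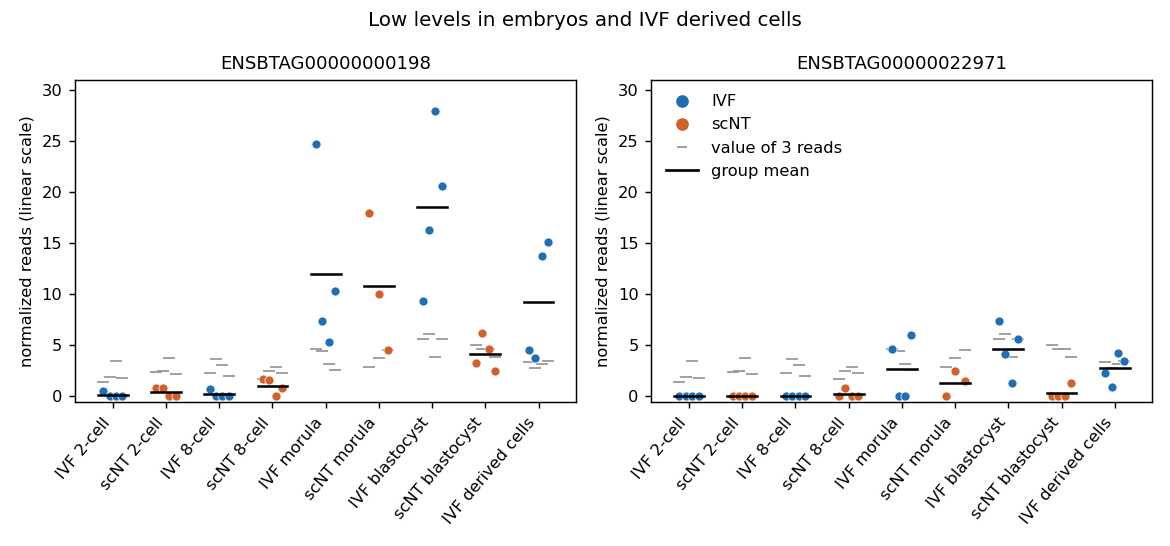
Normalized reads on a linear axis in embryos and IVF derived cells for ENSBTAG00000000198 (left) and ENSBTAG00000022971 (right). Points are libraries, black bars are group means, and grey ticks give the value of 3 reads in each library. The first gene lies between 9.3 and 27.9 in IVF blastocysts and between 2.5 and 6.2 in scNT blastocysts.

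Ordered by mean, both genes stood highest in scNT derived cells and next in IVF blastocysts, and the ranges of these neighbours did not overlap. For the first gene the order went on with IVF morulae, scNT morulae, IVF derived cells and scNT blastocysts at means from 11.9 to 4.15, and each of these overlapped its neighbour. A gap without overlap followed between scNT blastocysts and scNT 8-cell embryos (4.15 against 1.03), after which all groups were at 1.03 or lower. For the second gene IVF blastocysts had a mean of 4.60, IVF derived cells 2.73, IVF morulae 2.65, scNT morulae 1.33 and scNT blastocysts 0.325, each overlapping its neighbour. The mean in scNT derived cells was 755 times that in the scNT blastocysts of the stage before for the first gene. For the second gene, with 1 read in scNT blastocysts, the ratio of reads per total reads was 3081 with a counting interval from 553 to 121690.

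The reads of both genes were also divided into shares, as a description with no test between groups. In scNT derived cells the first gene had 13271 of 17181 reads of both genes, or 77.2% (exact Clopper-Pearson 95% interval from 76.6 to 77.9%). It had 34 of 44 in IVF derived cells (77.3%, 62.2 to 88.5%), 46 of 56 in IVF blastocysts (82.1%, 69.6 to 91.1%) and 38 of 48 in IVF morulae (79.2%, 65.0 to 89.5%). In scNT blastocysts it had 11 of 12 (91.7%, 61.5 to 99.8%) and in scNT morulae 30 of 33 (90.9%, 75.7 to 98.1%). These intervals are wide, and all hold the 77.2% of scNT derived cells. Among the single scNT derived-cell libraries the share was 79.7%, 67.7%, 78.9% and 78.7%, and the intervals of replicate 2 and of the other 3 do not meet. None of these shares lies within the interval of 76.6 to 77.9% for the pooled reads. That interval covers counting error alone and leaves out the spread between libraries. Gene lengths were not used, so a share says nothing about which gene is more highly expressed. Fibroblasts and oocytes had 0 reads of both genes and therefore no share. Whether reads of scNT derived-cell libraries contributed to the low counts in other libraries was not tested.

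**Figure D4:**
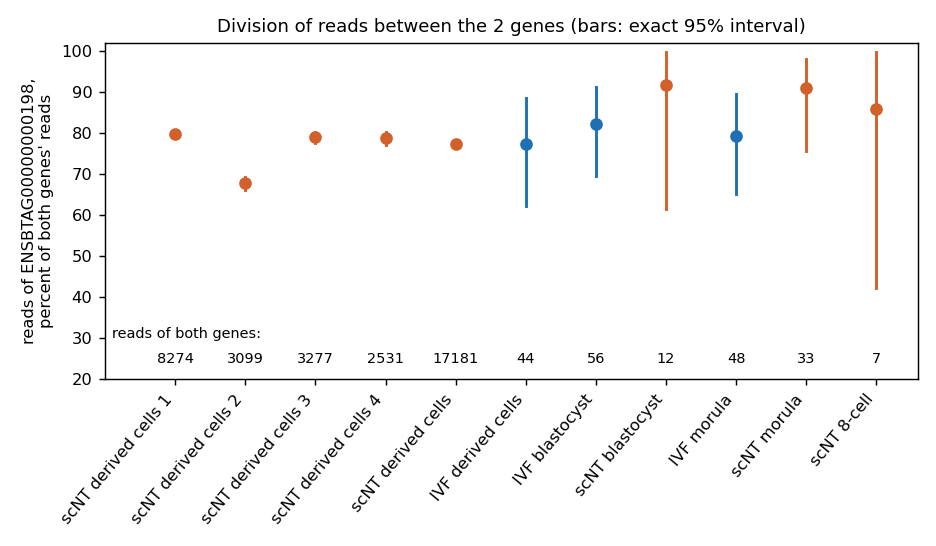
Reads of ENSBTAG00000000198 as a percentage of the reads of both genes, in the 4 scNT derived-cell libraries, in that group as a whole and in the other groups with more than 3 reads of both genes. Bars are exact 95% binomial intervals, which cover counting error alone, and the numbers give the reads of both genes. The shares run from 67.7% to 91.7%, and the intervals of the low groups hold the 77.2% of the scNT derived cells.

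Over the 47 libraries Pearson's r of log2(value + 1) between the 2 genes was 0.943, the highest for either gene among 15815 others. The choice of both genes by their derived-cell values fixes a high r here, so this rank supports nothing. The second gene and ENSBTAG00000020564 entered the ranking, which asked for at least 10 in 4 libraries, through scNT derived cells alone. The next by r for both was ENSBTAG00000020564, with an r of 0.916 to the first gene and 0.925 to the second, and no further gene reached 0.9 with either. ENSBTAG00000020564 had 426.9, 506.2, 226.7 and 146.9 normalized reads in scNT derived cells, at most 3.5 in IVF derived cells and at most 6.3 in embryos, and 0 in fibroblasts, oocytes and all 2-cell and 8-cell embryos. By Spearman's rho (0.796) the second gene ranked 89 for the first gene, and the first gene ranked 2 for the second. Without the 8 derived-cell libraries r fell to 0.717 between the 2 genes, and to 0.594 and 0.193 with ENSBTAG00000020564. The second gene then ranked 1230 for the first gene, and the first gene ranked 8 for the second.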

How the data were processed

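Long RNA was sequenced after low-input library preparation with several rounds of PCR, per the labels' protocols. Because no source used here mentions molecular identifiers, a read was not counted as a molecule of its own. STAR, DESeq2, FastQC, MultiQC and build UMD3.1 are named, per the submitters' processing notes. Versions, annotation, read counter and strand setting are not given there. The signal the authors deposited was 1 normalized read value per gene and library, with 1 decimal. The values of a library were whole multiples of 1 step (0.477 to 2.04). At least 99.97% of values above 0 were whole reads within 0.05 reads or 0.05 normalized reads, whichever was wider. The share by chance was at most 21.2%, and those whole reads were used as counts.

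Groups and replicate numbers came from sample titles. For the number of pools at a stage, the labels contradict each other (3 or 4). Limma 3.58.1 (R 4.3.3, trend and robust) was fitted to log2(value + 1) of 2 groups at a time, for genes reaching 10 in at least the smaller group's number of libraries, with Benjamini-Hochberg adjustment over all genes and a threshold of 0.05. This scale understates changes of low genes. A gene here that missed the filter was given a two-sided exact permutation test of library values, unadjusted. Of the 26 values from 2 genes in 13 comparisons, 12 had at most 3 reads over both groups and no test, 2 were tested by limma and 12 by permutation, and 3 passed. The limma fit with its filter, used for 2 of these values, was tested on simulated data. For scNT against IVF morulae it recovered 43% of genes set to differ by 1 on the log2 scale. For IVF blastocysts against IVF morulae it recovered 77%. The genes set to differ had a mean of at least 50 normalized reads. The first gene had means of 10.8 in scNT morulae, 11.9 in IVF morulae and 18.5 in IVF blastocysts. Recovery of genes as low as this was not simulated. The permutation test, used for 12 values, was not tested in this way. Alternatives were a pseudocount of 5, no filter, equal library totals, edgeR 4.0.16 and DESeq2 1.42.0 on the recovered reads, a replicate block, and leaving out each library.

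Same-numbered scNT and IVF libraries deviated together at the 2-cell stage (r from 0.118 to 0.683) and the 8-cell stage (0.231 to 0.563), and not in every pair of any other comparison. The rule for named genes took the 2 genes and, for each, the 2 with the highest Pearson r among genes with at least 10 in at least 4 libraries. Lists of marker genes could not be used without names. The genes, lists and tests were chosen with earlier results of these data known.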

Additional observations from a re-analysis of the deposited data

Results flagged for a closer look

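For ENSBTAG00000000198 the difference between scNT and IVF was -1.88 in blastocysts and 8.32 in derived cells on the log2(value + 1) scale, a gap of 10.20. All 4 scNT libraries lay below all 4 IVF libraries at the blastocyst stage and above them in derived cells. The gap itself was not tested, and its second term was fixed by the choice of the gene. In the 10 groups of 4 libraries with more than 3 reads of a gene, no library stood apart by Dixon's criterion.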

How the results depend on the processing

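The counts set the limits: the tested differences in embryos rest on at most 46 reads a group. All 14 tested values kept their direction and their side of the threshold with a pseudocount of 5, without the filter and with edgeR, as did the 12 for which DESeq2 gave an adjusted p. With equal library totals 13 did, and ENSBTAG00000022971 passed in blastocysts, at -1.96 (exact permutation p = 0.0286, n = 4 and 4). That pass hangs on the scaling of 1 read in IVF replicate 3 and 1 read in scNT replicate 4, which were tied before. With the replicate block, paired values with exact sign flips cannot give less than 0.125 for 4 pairs or 0.25 for 3, so the calls of ENSBTAG00000000198 were lost by construction. Its paired values were -1.88 in blastocysts, 3.29 from the IVF 8-cell embryo to the morula and 2.64 for that step in scNT embryos. The scNT morulae had no replicate 1, so the block left out replicate 1 of the groups set against them. The difference between scNT and IVF morulae then reversed, to 0.31 for ENSBTAG00000000198 (limma) and 0.11 for ENSBTAG00000022971. Leaving out IVF morula replicate 1 without pairing gave these same values. Likewise, leaving out scNT 8-cell replicate 1 without pairing gave the same 2.64. The block changed no other call.

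Leaving out single libraries, ENSBTAG00000000198 lay between -2.15 and -1.66 for scNT against IVF blastocysts, and passed in 6 of 8 cases. From the 8-cell embryo to the morula it lay between 2.88 and 3.56 in IVF embryos, passing in all 8, and between 2.04 and 2.94 in scNT embryos, where groups of 2 and 4 or of 3 and 3 allow no p under 0.05 (exact permutation, lowest p = 0.0667). ENSBTAG00000022971 lay between -2.41 and -1.79 in blastocysts and passed without IVF replicate 3. Between scNT and IVF morulae the values crossed 0, from -0.52 to 0.37 and from -0.72 to 0.24. The other tested values passed in no case.

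All 11 group means with more than 3 reads moved by less than 1 SD with equal library totals. The count of genes on in scNT and near silent in IVF derived cells was 2 with limits of 5 and 100, and the opposite count was 1 with equal library totals (ENSBTAG00000010809, named after its values were seen). Spearman's rho was 0.796 between the 2 genes, and 0.712 and 0.521 for ENSBTAG00000020564 with ENSBTAG00000000198 and ENSBTAG00000022971. Pearson's r without derived cells was 0.717, 0.594 and 0.193.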

Other observations

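ENSBTAG00000007296, the remaining gene that was on in scNT and near silent in IVF derived cells, followed another course. It was singled out after its values were seen. Unlike the 2 genes of the report it was present in fibroblasts, with 118.8, 88.3, 9.0 and 103.8 normalized reads in replicates 1 to 4, of which replicate 3 is the library that stood apart. It was at most 5.1 in scNT 2-cell and 3.3 in scNT 8-cell embryos. It had 40.9 ± 6.71 in scNT morulae (SD, n = 3), 78.8 ± 21.8 in scNT blastocysts and 87.4 ± 15.0 in scNT derived cells (n = 4 each). No IVF library of any stage exceeded 7.5, and IVF derived cells had 0.575 ± 0.665. The scNT libraries thus lay above the IVF libraries from the morula on, whereas ENSBTAG00000000198 and ENSBTAG00000022971 did so in derived cells alone. These values are a description, with no test.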
